A study of Hordeum vulgare with 2 samples.

Results

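Protein-folding factors of the germinated barley embryo were followed through the cysteines that thioredoxin (Trx) can reach: cyclophilins, a heat shock cognate 70 kDa protein (HSP70), the mitochondrial chaperonin CPN60 and calreticulin. Peptides were taken by their deposited protein names, and the rice-annotated entry Os03g0277300 was added because its peptide resembles that of HSP70. This gave 11 cysteine peptides from 7 entries, out of 210 peptides in the series. All 11 were among the 199 peptides of the run with a block after Trx, and 5 of them were also among the 93 peptides of the control run.

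Both runs used protein extract of dissected embryos from the malting cultivar Barke, germinated for 48 h. In both, free thiols were capped with iodoacetamide (IAM) at extraction, and portions of the extract stood for 1 h with Trx or without it. In the blocked run, IAM was then given again at 10 mM, so that thiols newly freed by Trx could not be tagged afterwards. In the control run, this addition was left out, although one of its labels calls the extract untreated with Trx. The remaining cysteines were reduced chemically and tagged with isotope-coded affinity tags (ICAT), light for the portion with Trx and heavy for the portion without it. The deposited value is the heavy/light ratio, that is, the portion without Trx over the portion with it. A cysteine reduced by Trx and then blocked takes up less light tag, so its ratio lies above 1 in the blocked run. Each run is 1 sample, so no p-value was computed. Every ± below is the authors' SD within a run, over a number of spectra that is not known.

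Cyclophilins are peptidyl-prolyl isomerases, which turn the peptide bond before a proline during folding, and cyclophilins of the plant chloroplast are known targets of Trx. HSP70 proteins bind and release unfolded segments of other proteins at the cost of ATP. CPN60 forms the barrel in which proteins imported into mitochondria fold, and calreticulin is a calcium-binding chaperone that holds newly made glycoproteins in the endoplasmic reticulum.

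Near-identical peptides of related proteins carry most of the contrast described below, and they are printed first. Each line gives the protein entry, and the single C in each run is the tagged cysteine. The first set holds the cyclophilin, HSP70-like and CPN60 peptides that differ from each other at 1 to 3 residues.

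Cyclophilin A-2 (BQ760074): VIPDFMCQGGDFTR
Cyclophilin (TC146604): IIPGFMCQGGDFTR
Os03g0277300: ELESLCNPIISK
HSP70 (HSP71_SOLLC): ELEGICNPIIAK
CPN60-1 (rice entry): CELDDPLILIHDK
CPN60-1 (maize entry): CELEDPLILIHDK

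The second set holds shorter peptides of the same proteins and of calreticulin, which give a further cysteine of each protein.

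Cyclophilin A-2 (BQ760074): SGICSK
CPN60-1 (maize entry): AIFTEGCK
Calreticulin (CALR_ORYSJ): LDCGGGYVK

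The other members were a 27-residue peptide of cyclophilin TC146604 and a 21-residue peptide of calreticulin, which are referred to by their length. All 11 peptides hold 1 cysteine, so each ratio belongs to a single cysteine of its peptide. Whether other proteins share a peptide is not given here. The cyclophilin entries come from the barley gene index, and their names are those of the wheat (A-2) and cucumber proteins listed beside them. The other entries were matched in rice, tomato or maize proteins.

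The cyclophilins fell into a high and a low entry. In the blocked run, cyclophilin A-2 had a ratio of 1.90 ± 0.19 at VIPDFMCQGGDFTR and 1.81 at SGICSK, whose SD is listed as 0 and is not read as an absence of error. Cyclophilin TC146604 had 1.08 ± 0.11 at IIPGFMCQGGDFTR and 1.08 ± 0.08 at its 27-residue peptide. Both measured cysteines of cyclophilin A-2 therefore lay high, and both of TC146604 lay close to 1. Of these peptides, only VIPDFMCQGGDFTR and IIPGFMCQGGDFTR are near-identical between the entries. The peptides of an entry differed 1.05-fold in cyclophilin A-2 and less than the authors' SD in TC146604. Among the 199 peptides, those of cyclophilin A-2 ranked 10 and 15 from the top, and those of TC146604 ranked 149 and 150.

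Expressed as the apparent share of light tag lost, which is 1 minus light over heavy, the cyclophilin A-2 sites had lost 47.5% and 44.7%. The corresponding values of TC146604 were 7.41% and 7.75%. The site pair VIPDFMCQGGDFTR and IIPGFMCQGGDFTR differs by the substitutions V1I and D4G, counted from the first residue of the cyclophilin A-2 peptide. From position 5 to the end, cysteine included, the letters are the same. Cyclophilin A-2 had a 1.76-fold higher ratio at this site, a log2 difference of 0.82 with a propagated SD of 0.21, and the SD ranges (1.71 to 2.09 against 0.970 to 1.19) did not overlap.

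In the control run, cyclophilin A-2 had 1.19 ± 0.09 at VIPDFMCQGGDFTR and 1.00 at SGICSK, with an SD again listed as 0. The 27-residue peptide of TC146604 had 0.926 ± 0.07, and IIPGFMCQGGDFTR was measured in the blocked run alone, so the near-identical pair has no control difference. Without the block, the apparent loss of light tag was -7.99% at the 27-residue peptide, whose ratio lay below 1, and 0.299% at SGICSK. With the block, the same 27-residue peptide had an apparent loss of 7.75%. Its SD ranges, 1.004 to 1.164 with the block and 0.856 to 0.996 without it, did not overlap. Its 1.17-fold difference between the runs was smaller than the 1.24-fold between the run medians. The control value of VIPDFMCQGGDFTR was itself high, at rank 6 of 93, and its apparent loss without the block was 16.2%. The match behind it also differed between the runs: in the blocked run it carried an oxidised methionine, charge 2 and a Mascot score of 73, and in the control run no oxidation, charge 3 and a score of 22. SGICSK had the same modification and charge in both runs, with scores of 30 and 24.

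**Figure D1:**
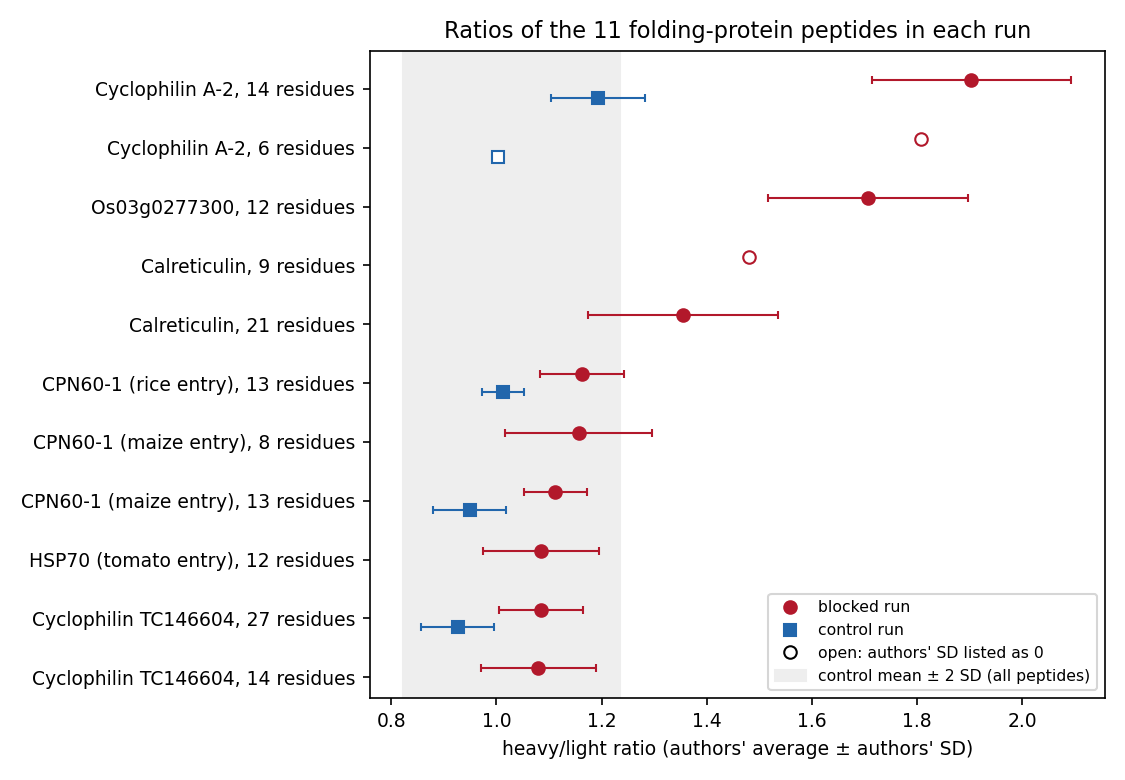
Heavy/light ratio (x axis, no unit) of the 11 peptides, named by protein and length (y axis), in the blocked run (circles) and the control (squares), each 1 sample. Bars are the authors' SD, open symbols have an SD listed as 0, and the grey band spans 0.822 to 1.24, the control mean ± 2 SD over its 93 peptides. The 5 upper peptides lie right of the band in the blocked run, and all 5 control values lie inside it.

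The HSP70-like peptides also gave a high and a low entry, but with only 1 peptide for each. Os03g0277300 had 1.71 ± 0.19 at ELESLCNPIISK in the blocked run, at rank 25 of 199, while the HSP70 entry had 1.09 ± 0.11 at ELEGICNPIIAK, at rank 148. The apparent loss of light tag was 41.4% for Os03g0277300 and 7.83% for HSP70. The peptides differ by S4G, L5I and S11A, read from Os03g0277300, with the cysteine at position 6 in both. Leucine and isoleucine have equal mass, so L5I rests on the database sequence and not on the spectrum. Os03g0277300 had a 1.57-fold higher ratio, with a log2 difference of 0.65 and a propagated SD of 0.22. The SD ranges, 1.52 to 1.90 for Os03g0277300 and 0.975 to 1.20 for HSP70, were apart.

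Identification was uneven within this pair, with a Mascot score of 43 for Os03g0277300 and 20 for HSP70, which is the lowest score the authors accepted. In the cyclophilin pair the scores were 73 and 28, so that in both pairs the lower ratio came with the lower score. Charge differed too: in both pairs the peptide with the higher ratio had charge 2 and the other charge 3. The 13-residue CPN60 peptides both had charge 3. Outside the pairs, SGICSK (1.81), LDCGGGYVK (1.48) and AIFTEGCK (1.16) had charge 2 in the blocked run, with scores of 30, 35 and 30. The 21-residue calreticulin peptide (1.36) had charge 3 and a score of 49. The 27-residue cyclophilin peptide (1.08) had charge 4 and a score of 85. Whether score or charge bears on the ratio was not tested. Neither HSP70-like peptide was among the control peptides.

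CPN60 gave low ratios at each of its measured cysteines. In the blocked run, the rice entry had 1.16 ± 0.08 at CELDDPLILIHDK, and the maize entry had 1.11 ± 0.06 at CELEDPLILIHDK and 1.16 ± 0.14 at AIFTEGCK. In the control run, the rice entry had 1.01 ± 0.04 and the maize entry 0.949 ± 0.07 at the 13-residue peptides. The substitution D4E separates the 13-residue peptides, whose first residue is the tagged cysteine. Their log2 difference was 0.06 with a propagated SD of 0.13 in the blocked run, and 0.09 with a propagated SD of 0.12 in the control run. The SD ranges overlapped in both runs, so a difference between the CPN60 entries was not detectable here. These entries have scores of 62 and 71 in the blocked run, the best matched of the 3 pairs.

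Calreticulin lay between these extremes. It had 1.48 at LDCGGGYVK, with an SD listed as 0, and 1.36 ± 0.18 at its 21-residue peptide, at ranks 70 and 86 of the blocked run. The apparent loss of light tag was 32.4% at LDCGGGYVK and 26.2% at the 21-residue peptide. The ratio of the shorter peptide falls inside the SD range of the longer one, 1.18 to 1.54. In human calreticulin the counterparts of these cysteines are bonded to each other in the lectin domain. Calreticulin has no value in the control run, and the lower end of the 21-residue range reaches below the control limit. With each run divided by its median, LDCGGGYVK was at 1.18 and the 21-residue peptide at 1.08. Both then lay below the upper limit of that setting, 1.22.

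**Figure D2:**
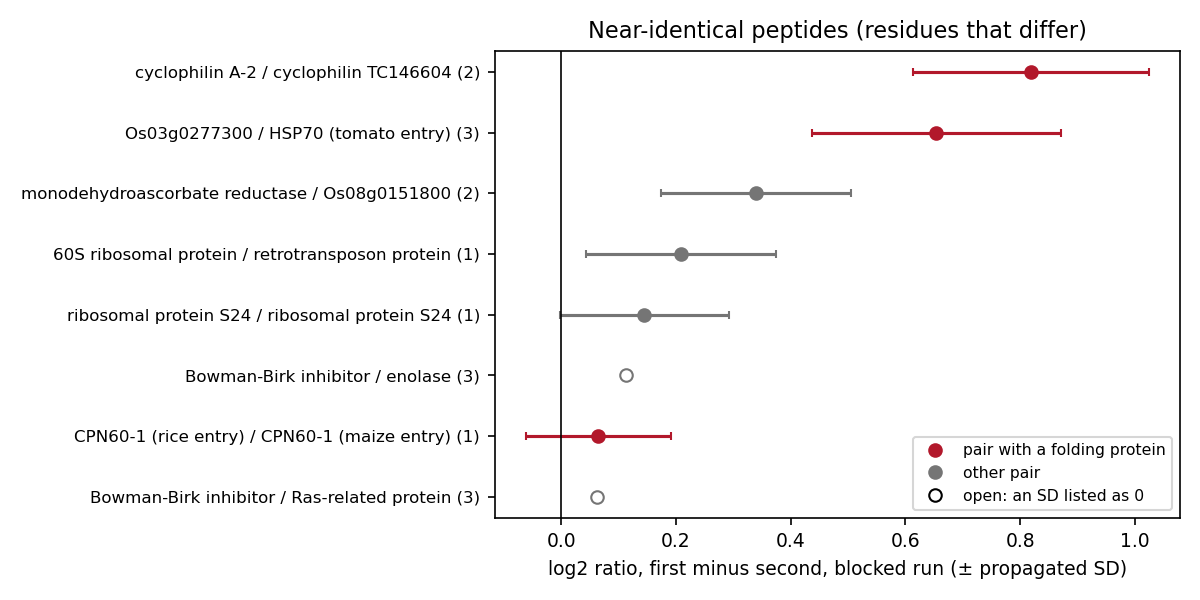
Difference in log2 heavy/light ratio (x axis) between the peptides of each near-identical pair of the blocked run (y axis, the higher ratio named first, with the number of differing residues in brackets), with propagated SDs as bars. Red marks the 3 pairs with a folding protein, at 0.82, 0.65 and 0.06, grey marks the 5 other pairs, at 0.06 to 0.34, and open circles have an SD listed as 0.

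The same search over all peptides, for equal length and at most 3 differing residues, found 8 pairs in the blocked run, 3 of them with a folding protein. The peptide with the higher ratio was put first in each pair, so no difference is below 0. Of the 3 other pairs with an SD above 0 on both sides, SD ranges were apart for 1. That pair is a monodehydroascorbate reductase, which regenerates ascorbate, at 1.36 ± 0.07 against Os08g0151800 at 1.07 ± 0.11, a log2 difference of 0.34. Its SD ranges were also apart in the control run, at 0.974 ± 0.03 against 0.883 ± 0.05, a log2 difference of 0.14. SD ranges of near-identical peptides can thus be apart without the block, and the cyclophilin and HSP70-like pairs have no control difference to compare. The other pairs were ribosomal S24 peptides (0.15), a 60S ribosomal protein against an entry named as a retrotransposon protein (0.21), and hexapeptides of unrelated proteins that share only 3 residues. The cyclophilin and HSP70-like pairs thus had the widest differences of the 8 pairs, as a description of this run.

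The members were next read against the whole blocked run. The upper limit was a ratio of 1.24, which is 2 SD above the mean of the log2 ratios of all control peptides. Of the 11 peptides, 5 lay above it (45.5%), namely both of cyclophilin A-2, Os03g0277300 and both of calreticulin, against 50.8% of all 199 peptides of the run. The share of members is near that background and is no result about folding proteins as a group. The other 6 lay within the limits, at 1.08 to 1.16, with no peptide between 1.16 and 1.36. The median ratio of the members was 1.16, and that of all peptides 1.249.

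In the control run, 0 of 5 members lay above the limit, against 2.15% of all 93 peptides, which set that limit themselves. The members' control values ranged from 0.926 to 1.19 with a median of 1.00, and the median of all control peptides was 1.01. The precision of the members was close to that of the run: where an SD was given, it had a median of 10.1% of the ratio for members and 8.10% for all peptides of the blocked run.

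**Figure D3:**
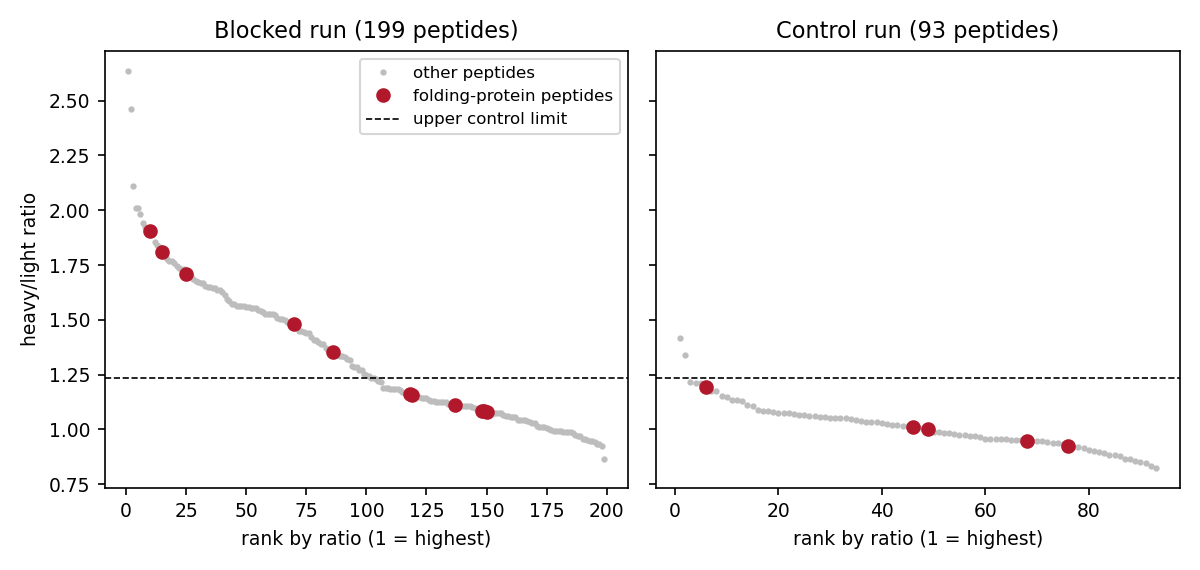
Heavy/light ratio (y axis, no unit) of every peptide in rank order (x axis, 1 is the highest) for the blocked run (left, 199 peptides) and the control run (right, 93 peptides). Red points are the folding-protein peptides, 11 on the left and 5 on the right, and the dashed line is the upper control limit of 1.24. On the left they fall into 5 above the line, from rank 10 to 86, and 6 below it, from rank 118 to 150.

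Each shared peptide was then compared with itself. SGICSK of cyclophilin A-2 had 1.81 with the block and 1.00 without it, a 1.80-fold difference and the third largest of the 82 shared peptides. VIPDFMCQGGDFTR had 1.90 ± 0.19 with the block and 1.19 ± 0.09 without it, 1.60-fold, with a log2 difference of 0.67 and a propagated SD of 0.18. The remaining shared members had smaller differences, of 1.17-fold for the 27-residue cyclophilin TC146604 peptide, 1.17-fold for CELEDPLILIHDK and 1.15-fold for CELDDPLILIHDK. Their propagated SDs on the log2 scale were 0.15, 0.13 and 0.11, against log2 differences of 0.23, 0.23 and 0.20.

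All 5 shared members had the higher ratio in the blocked run, as did 81 of all 82 shared peptides, but with each run divided by its own median both cyclophilin A-2 peptides stayed higher and the other 3 members turned lower. After that division 41 of the 82 shared peptides (50%) stayed higher, so 2 of 5 members is near the background. The medians of the runs differ by 0.30 on the log2 scale (1.24-fold). Relative to that shift, SGICSK was 1.46-fold and VIPDFMCQGGDFTR 1.29-fold higher in the blocked run, and the other 3 were at 0.929 to 0.948-fold. SD ranges of the deposited ratios were apart for 4 of the 4 shared members with SDs above 0, against 62.3% of all 69 such peptides. With ranges of 2 SD this held for 1 of the 4, VIPDFMCQGGDFTR, against 37.7% of the 69. With each run divided by its median it again held for VIPDFMCQGGDFTR alone among the 4, against 47.8% of the 69 in either direction. These counts of 4 members are too small to set the members apart from the other shared peptides. The median log2 difference was 0.23 for the 5 members and 0.31 for all 82 shared peptides.

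**Figure D4:**
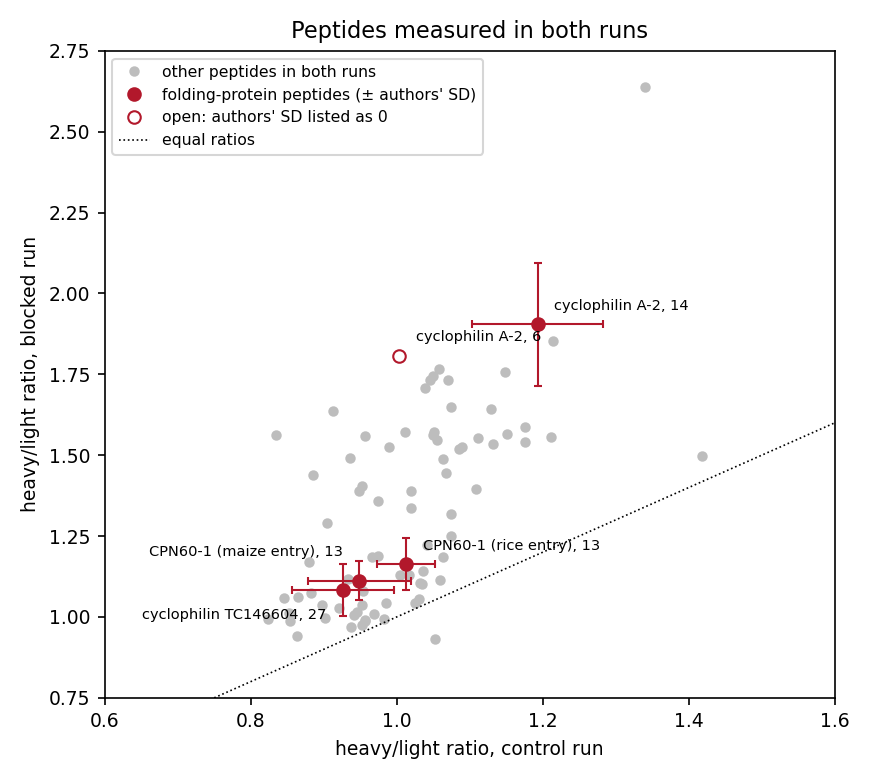
Heavy/light ratio in the control run (x axis) and the blocked run (y axis) for the 82 peptides in both. Red points are the 5 folding-protein peptides with the authors' SD as bars (open where it is listed as 0) and their length in residues beside the name, and the dotted line marks equal ratios. The cyclophilin A-2 peptides stand at 1.81 and 1.90 on the y axis, the other 3 at 1.08 to 1.16.

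The non-member peptides most like SGICSK, by distance over the log2 ratios of both runs, were LYVAYHCPYAQR of an IN2-1 protein (1.75 ± 0.12 with the block, 1.05 ± 0.05 without it) and GGHSLQQCVQR of embryo globulin (1.77 and 1.06). The third was CNMAGKPAVVTR of a pyruvate kinase-like protein (1.73 and 1.05). The last 2 have SDs listed as 0. Their distances were 0.08, 0.08 and 0.09 log2 units over these 2 samples, which is a description of likeness in level only.

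Proteins of proteolysis, the other arm of protein quality control, had 1 of 10 ratios past 1.24 with the block, with a median of 1.04, and 0 of 7 without it, with a median of 0.982. The proteasome, which degrades ubiquitin-tagged proteins, had 6 peptides at 0.972 to 1.05 in the blocked run, so the lowest folding-protein ratios, of cyclophilin TC146604 and HSP70, lay just above its range. The difference between these lists was not tested. No peptide of either run carried the name of a protein disulfide isomerase, calnexin, prefoldin, DnaJ or TCP-1 protein. The barley endoplasmin homolog, the HSP90-type chaperone of the endoplasmic reticulum, is no member by name and was singled out after its values were seen. Its peptide LHNTPCVVVTSK had 1.18 ± 0.11 with the block and 1.06 (SD listed as 0) without it, with scores of 20 and 32.

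Some peptides carried names taken here as markers of other seed tissues, although a name alone does not give the tissue of origin. Hordein, avenin, amylases or amylase inhibitors accounted, by name, for 5 blocked-run peptides (1.11 to 1.92) and 1 control peptide (1.08). Embryo markers (embryo globulin, embryo-specific proteins and PER1) accounted for 5 blocked-run peptides (0.923 to 1.85) and 4 control peptides (1.06 to 1.21). Whether any folding-protein peptide came from tissue other than embryo was not tested.

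The letters and listed modifications of the members were checked for agreement with the deposited calculated masses. The mass computed from the residues and the listed modifications differed from the deposited calculated mass by at most 7e-05 Da for all 16 member matches. Mascot's calculated mass comes from the same letters, so this checks the record and cannot check whether a peptide was rightly identified. All 4 member peptides with a methionine carried it oxidised in the blocked run. The measured masses lay within 0.0362 Da of the calculated ones in the blocked run. In the control run the 27-residue cyclophilin peptide was off by 0.186 Da (56.2 ppm after calibration), just inside the search tolerance of 0.2 Da, with a score of 90.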

How the data were processed

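Each run is one deposited peptide table. Per the labels, ICAT-tagged tryptic peptides were captured on avidin and read by liquid chromatography and tandem mass spectrometry. Per the series' design text, Mascot searched plant Swiss-Prot 54.6, an NCBI protein set and HvGI 9.0 at 0.2 Da tolerance, and MSQuant 1.4.3a12 gave the ratios. The deposited heavy/light ratio is the authors' average per peptide, its SD is in the same unit, and the deposited score is Mascot's (at least 20). Whether the ratios were centred is not stated in these sources.

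Peptides were joined on their letters, ratios taken to log2, and limits set at the control mean ± 2 SD. A propagated SD combines the authors' SDs of both values. Pairs were searched at equal length and up to 3 substitutions. Every member was named, plus the 3 nearest shared peptides. With 1 sample per group no test was possible. Functions were tested on simulated data. Members, lists and alternatives were chosen with earlier results of these data known. Of 7 member entries, 0 matched the barley RefSeq gene table, so no coordinates are given. Python 3.11.15, pandas 2.3.3 and numpy 2.4.6 were used.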

Additional observations from a re-analysis of the deposited data

How the results depend on the processing

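Of 26 alternatives, 18 left a count within 1.5 times its reported value, or a median or difference within the median SD given by the authors. Some of these 18 could not have come out otherwise, so the tally is no measure of robustness. Keeping peptides with 1 cysteine removes none of the 11 members. Os03g0277300 has no control value, so leaving it out cannot alter the shared differences. A limit of 2 substitutions cannot alter the cyclophilin and CPN60 pairs. The count of 5 members above the limit became 3 of 11 at a fixed ratio of 1.5 (all peptides 32.7%), 3 of 11 with each run divided by its median (all peptides 29.1%) and 3 of 6 with a Mascot score of at least 40 (all peptides 54.7%). It was 4 of 11 with a limit of 3 SD (1.37, all peptides 41.7%) or above the highest control peptide (1.418, all peptides 38.7%), and 4 of 10 without Os03g0277300 (all peptides 50.5%). The 4 shared members with SD ranges apart became 1 of 4 with ranges of 2 SD (all shared peptides 37.7%), 1 of 4 with each run divided by its median (47.8%), and 2 of 2 with a score of at least 40 (62.5%). Dividing by the run medians took the members' median ratio to 0.931 and turned their median log2 difference to -0.076, since their median log2 difference of 0.23 is below the 0.30 between the run medians. For the CPN60 pair, subtracting the control difference took 0.06 to -0.03, inside its propagated SD. The cyclophilin and HSP70-like pairs could not be set against the control, and a score of at least 40 would leave neither pair whole. With at most 2 substitutions the HSP70-like pair is not found, and the cyclophilin and CPN60 pairs are unaltered. No paired analysis was possible because each group has 1 sample.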
